A study of Mus musculus with 3 samples.

Results

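SOX2 peaks at the borders of protein-coding genes without a CHD7 peak were described in otocysts, the epithelial vesicles from which the inner ear develops. Wild-type mouse otocysts were dissected at the embryonic stage E10.5, and cells from 34 of them, pooled and dissociated with Accutase, were divided into 3 samples for CUT&Tag. In this assay antibodies guide the Tn5 transposase, which cuts and tags the DNA around a bound protein. The samples received anti-CHD7, anti-SOX2 or no primary antibody and gave 1 library each; the last of these is not analysed here. All samples share the pool of cells, and the labels give the tissue as otocyst and the cell type as developing inner ear. Because every library came from 1 pool, fewer cells of a type and less binding per cell cannot be told apart.

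The peaks described were those of the SOX2 list on chromosomes 1 to 19 and X that had no base in common with a CHD7 peak and lay within 1 kb of either border of a protein-coding gene. They numbered 9930, out of 153800 SOX2 peaks on these chromosomes and 155548 in the whole list, and are called SOX2-only border peaks below. Another 5354 SOX2 peaks at gene borders overlapped one of the 33035 CHD7 peaks and are called shared border peaks. The peaks were thus chosen by the overlap of the called SOX2 and CHD7 peaks and by position, so both are described and not tested. Each peak carries the authors' total signal, which is the coverage summed over its bases, and its maximum signal. These values rank peaks within the SOX2 list and have no stated scale, and the read depth is unknown. With 1 library per antibody there was no replicate spread and no test between conditions was possible. Intervals are exact binomial (Clopper-Pearson) at 95% and cover counting error only. Absence of CHD7 means only that its list has no peak there.

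SOX2 is a transcription factor of the HMG-box family. Its DNA-binding domain recognises short motifs built on a core such as CATTGT or CTTTGT, bends the DNA in the minor groove, and often works beside a partner factor. In the ear SOX2 marks the prosensory regions that give rise to hair cells and supporting cells, and it also acts in the neurogenic lineage. CHD7 slides nucleosomes with energy from ATP, and loss of 1 gene copy causes CHARGE syndrome, in which the semicircular canals are often malformed. Gene starts are often rich in CpG dinucleotides, while the downstream end of a gene carries the site of transcript cleavage.

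Sequences upstream of 6 gene starts show the range of DNA under SOX2-only border peaks: a neuronal tubulin, a WNT receptor, an FGF receptor, a replication gene, a potassium channel and a collagen. They are the 250 bases before the RefSeq start site (GRCm38.p6, also called mm10), written 5′ to 3′ on the gene's strand. Each lies wholly inside its peak and outside every annotated gene. Capitals mark SOX cores, CATTGT or CTTTGT on either strand.
Tubb3 (chr8:123411303-123411552, plus strand): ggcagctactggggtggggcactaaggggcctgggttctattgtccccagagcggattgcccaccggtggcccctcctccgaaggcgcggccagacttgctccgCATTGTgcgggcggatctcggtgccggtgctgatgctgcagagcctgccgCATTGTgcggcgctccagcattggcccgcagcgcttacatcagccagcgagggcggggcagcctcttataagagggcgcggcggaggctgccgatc
Fzd10 (chr5:128600856-128601105, plus strand): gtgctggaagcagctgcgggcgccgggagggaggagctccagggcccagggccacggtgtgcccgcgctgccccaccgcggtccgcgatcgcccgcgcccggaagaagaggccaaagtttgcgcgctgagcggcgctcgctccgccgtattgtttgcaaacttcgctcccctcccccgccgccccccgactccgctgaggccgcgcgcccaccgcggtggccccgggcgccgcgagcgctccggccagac
Fgfr4 (chr13:55152568-55152817, plus strand): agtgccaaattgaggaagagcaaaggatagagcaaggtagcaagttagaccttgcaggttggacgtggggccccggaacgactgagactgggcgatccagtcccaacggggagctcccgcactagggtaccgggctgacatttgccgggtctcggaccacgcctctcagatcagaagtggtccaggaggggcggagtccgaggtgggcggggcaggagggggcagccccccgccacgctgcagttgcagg
Mcm6 (chr1:128359706-128359955, minus strand): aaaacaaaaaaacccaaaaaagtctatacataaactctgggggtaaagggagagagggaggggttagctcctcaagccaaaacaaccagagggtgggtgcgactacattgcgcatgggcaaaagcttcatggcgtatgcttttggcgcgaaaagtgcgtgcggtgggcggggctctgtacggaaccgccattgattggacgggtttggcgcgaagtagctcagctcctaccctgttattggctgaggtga
Kcna4 (chr2:107290339-107290588, plus strand): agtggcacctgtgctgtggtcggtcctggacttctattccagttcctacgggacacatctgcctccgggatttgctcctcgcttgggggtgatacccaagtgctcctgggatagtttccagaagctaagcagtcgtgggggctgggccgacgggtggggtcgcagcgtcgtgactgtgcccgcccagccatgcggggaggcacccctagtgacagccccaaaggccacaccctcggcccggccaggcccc
Col3a1 (chr1:45311288-45311537, plus strand): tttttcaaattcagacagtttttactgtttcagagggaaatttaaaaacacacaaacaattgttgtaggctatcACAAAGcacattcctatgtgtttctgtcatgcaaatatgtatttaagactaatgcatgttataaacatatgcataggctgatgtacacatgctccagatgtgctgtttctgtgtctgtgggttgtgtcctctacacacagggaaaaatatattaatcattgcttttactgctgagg

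Tubb3 held 2 SOX cores, beginning 146 and 96 bases before its start, and Col3a1 held 1, beginning 176 bases before. The stretches of Fzd10, Fgfr4, Mcm6 and Kcna4 held none. Their composition varied widely. Over the 300-base window that runs to 50 bases past the start, GC content was 77.7% for Fzd10, 67.3% for Tubb3, 56.7% for Mcm6 and 37.7% for Col3a1. The ratio of observed to expected CpG was 0.995, 0.765, 0.935 and 0 in the same order. The SOX2-only peak around the Fzd10 stretch had a total signal of 5454, and that around Kcna4 had 3871. Fgfr4 and Mcm6 had 2053 each, Tubb3 1935 and Col3a1 1173. Among these 6 the strongest and the weakest peak had the highest and the lowest GC content. With other stretches picked by the same rule this did not hold: Mthfs had 6334 at 61.3% GC and Smad1 1056 at 65%. The 6 were chosen after their values were seen.

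SOX2-only border peaks were weaker and narrower than shared border peaks. Their median total signal was 1114 (interquartile range 880 to 1525), against 2404 (1466 to 3753) for shared border peaks. The lowest total signal in the SOX2 list was 733, so many SOX2-only border peaks lay close to the limit of the list. Their total signal was still slightly larger than that of SOX2 peaks without CHD7 elsewhere. Those had a median of 938 both in gene bodies (53116 peaks) and between genes (68068 peaks). Median width was 700 bases at gene borders, 650 in gene bodies and 600 between genes, and 1000 for shared border peaks. Per base the median total signal was 1.66 for SOX2-only and 2.35 for shared border peaks, so shared border peaks had the larger width and the larger signal per base. For SOX2 peaks without CHD7 elsewhere it was 1.64 in gene bodies and 1.69 between genes, close to that of SOX2-only border peaks.

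The start and the downstream end of a gene differed in these peaks. The strand, taken from the RefSeq start windows, was given for 17274 of 21631 genes (79.9%), which placed 7733 of the 9930 peaks. Of these, 4623 (59.8%, interval 58.7% to 60.9%) lay only at gene starts, 2658 (34.4%) only at downstream ends and 452 (5.85%) at a start and an end at once. Shared border peaks lay almost wholly at starts: 87.9% were at starts only and 4.98% at downstream ends only. Seen from the other side, 2658 of 2871 SOX2 peaks at downstream ends had no CHD7 (92.6%, interval 91.6% to 93.5%), against 4623 of 8380 at starts (55.2%, interval 54.1% to 56.2%). The value at downstream ends resembled that in gene bodies, 89.2%, and between genes, 86.2%. Where the start itself lay inside the SOX2 peak 43.7% were without CHD7, and where the peak stood beside the start 73.8% were. SOX2-only peaks at starts had a median total signal of 1173 and those at downstream ends 997.

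**Figure D1:**
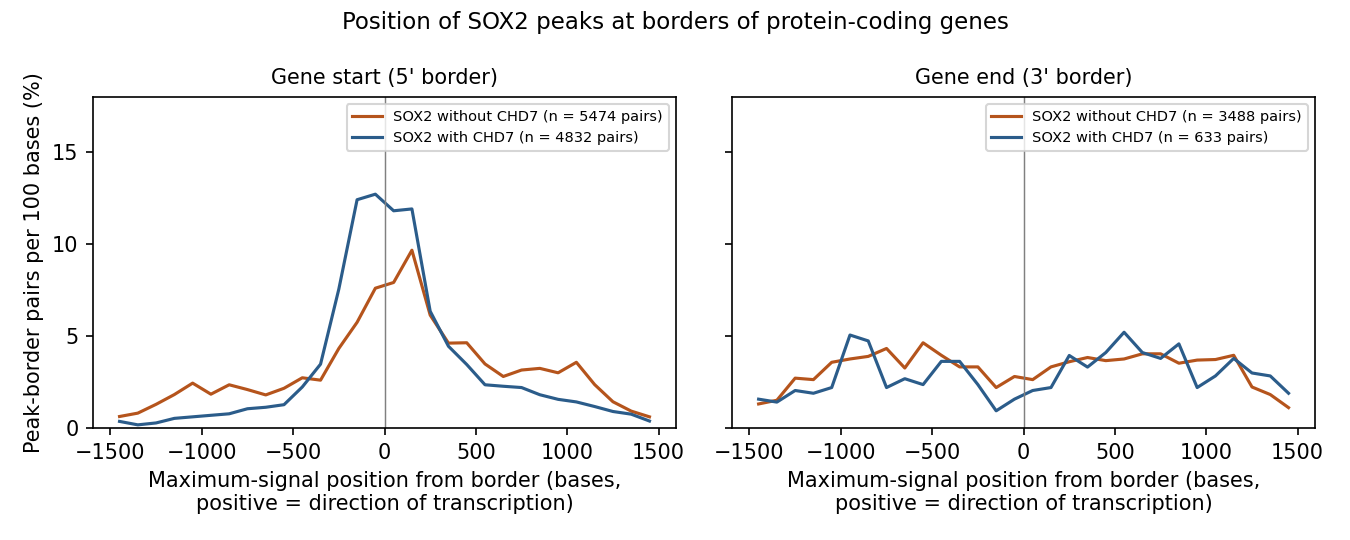
Position of the maximum signal of SOX2 peaks relative to the start (left) or downstream end (right) of a protein-coding gene, in bins of 100 bases; the vertical axis is the percentage of all pairs of a peak and a border, with positive positions in the direction of transcription. SOX2-only peaks (orange) gather at the start less tightly than shared peaks (blue), and neither set gathers at the downstream end.

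At starts, SOX2-only peaks had their maximum a median of 110 bases downstream of the border, and 31% of 5474 pairs of peak and start had it within 200 bases. Of 4832 pairs with shared peaks, 48.9% did. The start lay inside the peak in 48.7% of SOX2-only pairs and in 77.1% of shared pairs. At downstream ends there was no such gathering. Only 11% of 3488 SOX2-only pairs had the maximum within 200 bases, and the border lay inside the peak in 20.1%. Peaks placed only at downstream ends had, by definition, no protein-coding gene start and no border of unknown strand within 1 kb. A search of the RefSeq start windows could thus find only other start sites near them. Such a site lay within 1 kb for 55 of the 2658 SOX2-only peaks. Without peaks near such a site, 92.8% of the SOX2 peaks at downstream ends were SOX2-only.

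The gap between starts and downstream ends was present at every strength. SOX2 peaks were divided into 10 classes of total signal, with borders taken from all gene-border peaks. In the weakest class (733 to 821) 84.7% of peaks at starts and 97.4% at downstream ends had no CHD7. In the seventh class (1613 to 1994) these shares were 54.8% (interval 51.6% to 58%) and 89.7% (84.6% to 93.5%). In the strongest class (from 3695) only 98 of 1046 peaks at starts, 9.37%, had no CHD7, against 16 of 54 at downstream ends, 29.6% (18% to 43.6%). The share without CHD7 was thus far lower in the strongest class than in the weakest in all 4 places plotted, and starts had the lowest share in each class. In the ninth class it was still 72.1% at downstream ends, 46.5% in gene bodies and 45.1% between genes, against 26.2% at starts. A wider peak has more bases over which signal is summed and more on which CHD7 can overlap. Shares at equal width were not computed, so the part of width in this trend was not tested.

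**Figure D2:**
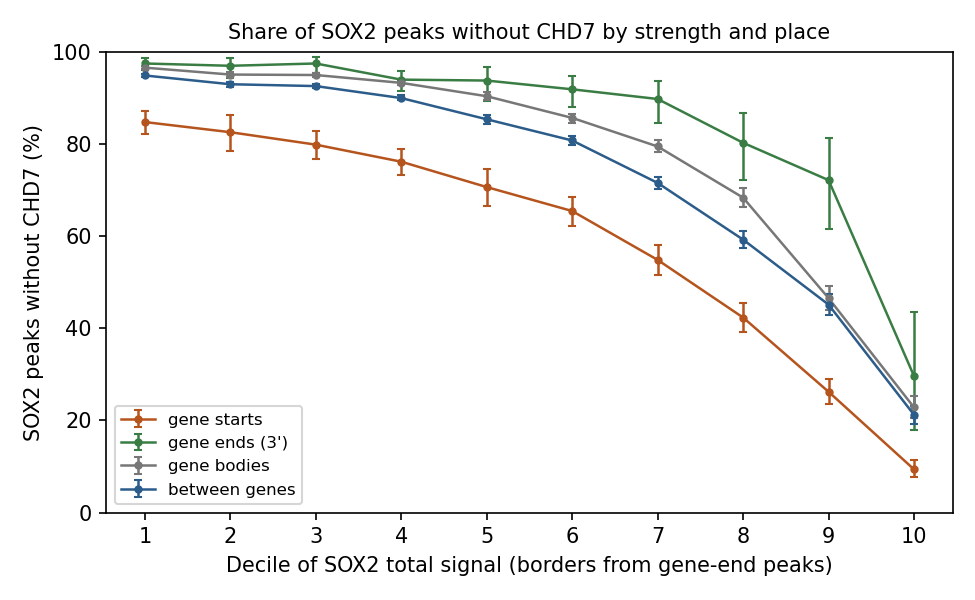
Percentage of SOX2 peaks without CHD7 (vertical axis) in 10 classes of SOX2 total signal (horizontal axis, weakest to strongest) at gene starts, downstream ends, gene bodies and between genes; points are shares and bars are exact 95% binomial intervals. Starts run from 84.7% to 9.37% and lie below the other 3 places in every class.

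CpG content differed along the same line. RefSeq start windows of 300 bases lay wholly inside a SOX2-only border peak in 1874 cases, inside a shared border peak in 3467, and touched a peak of neither list in 11053. The remaining 4651 windows met none of these conditions. A window was called CpG-rich at a GC content of at least 50% and an observed over expected CpG ratio of at least 0.6. By this rule 65% (62.8% to 67.2%) of windows inside SOX2-only peaks were CpG-rich, against 84.7% (83.4% to 85.8%) inside shared peaks, 22.9% with no peak and 45.6% of all 21045 windows. Median CpG ratios were 0.739, 0.817, 0.285 and 0.574 in this order. Windows were held by only a part of the SOX2-only border peaks, and by stronger ones. Median total signal was 1701 for the 1059 peaks holding a CpG-rich window and 1466 for the 625 holding a CpG-poor one. For all SOX2-only border peaks it was 1114. Among windows inside a SOX2 border peak, 29.3% of CpG-rich and 55.2% of CpG-poor windows had no CHD7. CpG-poor windows had the larger share at each strength: 86.3% against 60.7% in the weaker 5 signal classes, 61.1% against 40.2% in the next 3, and 25.6% against 12.2% in the strongest 2.

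**Figure D3:**
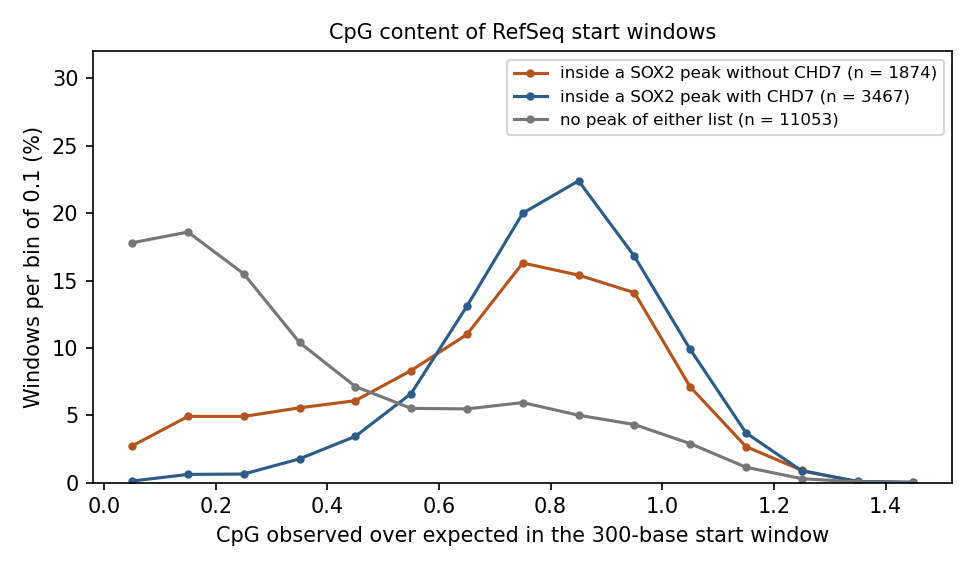
Distribution of the observed over expected CpG ratio (horizontal axis, bins of 0.1) in 300-base start windows inside SOX2-only border peaks (orange), inside shared border peaks (blue) and without a peak (grey), as a percentage of windows (vertical axis). The orange curve has its peak near that of the blue curve and a longer shoulder at low ratios, where the grey curve is highest.

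SOX cores were not more frequent in start windows wholly inside SOX2-only peaks than in all start windows, also within each CpG class. All windows include those inside the peaks, and composition was not matched further within a class. A core was present in 19.1% of the 1874 windows (17.3% to 20.9%), in 16.1% of windows inside shared peaks and in 25.2% of all windows. Split by composition, CpG-rich windows held a core in 15.2% inside SOX2-only peaks and in 15.2% of all; CpG-poor windows in 26.3% and 33.7%. The other motifs were also searched on both strands. GGGCGG, a core of SP and KLF factors, was in 63.3% of windows inside SOX2-only peaks, 75.3% inside shared peaks and 46.7% of all. CCAAT, the NF-Y motif, was in 37.9%, 45.6% and 38.5%. CCGGAAG, an ETS motif, was in 18.9%, 19.8% and 11.7%, and TATAAA in 6.67%, 4.41% and 12.7%. Among CpG-rich windows alone, CCAAT was in 34.5% (31.8% to 37.2%) inside SOX2-only peaks, 45% (43.2% to 46.8%) inside shared peaks and 27.8% (26.1% to 29.6%) without a peak. CCGGAAG was in 24.4% (22% to 26.9%), 21.3% (19.8% to 22.8%) and 18.6% (17.1% to 20.1%) of the same windows. GGGCGG was in 76.1%, 79.4% and 73.4% of them, and TATAAA in 4.35%, 3.61% and 4.87%. The palindromes TGACGTCA, the CREB motif, and CACGTG, the E-box of MYC and USF, were in 2.72% and 10.6% of windows inside SOX2-only peaks and in 2.26% and 7.91% of all. The NRF1 motif was in 2.19% and 1.34%. The octamer ATGCAAAT of POU factors, which was searched after sequences had been seen, was in 1.44% and 1.68%. No motif contains another, and overlapping matches each count. A match is a description of the sequence in this window and no evidence of binding, and the peaks extend beyond it.

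Starts shared by a pair of genes on opposite strands had a smaller share of SOX2 peaks without CHD7 than other starts. Of 846 SOX2 peaks at such divergent starts 267 (31.6%, interval 28.4% to 34.8%) had no CHD7, against 57.5% of 8558 peaks at starts on 1 strand. Divergent starts had the smaller share in the weaker 5 signal classes (59.9% against 80.4%), in the next 3 (36.1% against 55.2%) and in the strongest 2 (10.6% against 18.3%). In total 1037 SOX2-only border peaks touched the borders of 2 genes and 27 touched 3 or more, so a peak can count for neighbouring genes. Noncoding genes were near some peaks as well. Of the 9930 SOX2-only border peaks, 844 lay within 1 kb of a border of a long noncoding RNA gene, 61 of a microRNA gene and 12 of a transfer RNA gene. Of the 5354 shared border peaks 729, 55 and 38 did, which are larger shares.

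Most SOX2-only border peaks had a CHD7 peak within 50 kb, as did most SOX2 peaks without CHD7 elsewhere. The nearest CHD7 peak was a median of 20.5 kb from a SOX2-only border peak, and it was within 1 kb for 757 peaks (7.62%), within 10 kb for 31.7% and within 50 kb for 77.6%. SOX2 peaks without CHD7 in gene bodies had a CHD7 peak within 10 kb in 25.7% and those between genes in 24.1%. Within 50 kb these shares were 72.2% and 66.8%. At the limit of the overlap rule, 64 SOX2-only border peaks had a CHD7 peak within 100 bases (median total signal 1056), and 77 shared border peaks had at most 100 bases in common with one (median 1173). At the limit of the 1 kb window, 274 SOX2-only peaks lay 951 to 1000 bases from a border, and 265 peaks without CHD7 lay 1001 to 1050 bases from it, both with a median of 997.

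SOX2-only border peaks were found at 8799 of 21631 protein-coding genes (40.7%), 6879 of which had 1 such peak, 1626 had 2 and 294 had 3 or more. At 6826 genes (31.6%) there was no CHD7 peak at either border, and at 1973 (9.12%) CHD7 had a border peak elsewhere. In a further 4251 genes (19.7%) every SOX2 border peak lay on CHD7, 546 (2.52%) had CHD7 alone and 8035 (37.1%) had neither. Median gene length was 19 kb for the genes with a SOX2-only peak, 24.9 kb where every SOX2 peak lay on CHD7 and 11.5 kb for genes with neither. Among 14014 genes longer than 4 kb with a known strand, the downstream end had a SOX2-only peak in 18.5% where the start had SOX2 with CHD7, in 18.9% where the start had SOX2 alone and in 16.7% where the start had no SOX2. The first 2 of these shares were close, with intervals of 17.3% to 19.7% and 17.7% to 20.2%. By chromosome, the share of gene-border SOX2 peaks without CHD7 ran from 59.1% on chromosome 3 to 69.9% on chromosome 7 among the autosomes. On chromosome X it was 74.4% (276 of 371, interval 69.6% to 78.8%), while fewer X-linked genes, 27.7%, had a SOX2-only border peak.

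Gene lists were read against the shares over all genes, without a test. Notch signalling works by contact between cells: ligands of the Delta and Jagged families activate Notch receptors, whose cleaved domain switches on repressors of the HES and HEY families. Of 27 Notch pathway genes 8 had a SOX2-only border peak and no CHD7 border peak (29.6%, against 31.6% of all genes). Another 5 had both kinds of border peak (18.5%, against 9.12%). In 11 every SOX2 border peak lay on CHD7 (40.7%, against 19.7%). The count of 8 became 5 with the stronger 50% of SOX2 peaks and 13 with the stronger 50% of CHD7 peaks (background 22% and 41.5%). The ligand gene Dll1 (chromosome 17, 15367354 to 15376932) had 3 SOX2-only peaks around its start. Their total signals were 2492 at 15374801 to 15376200, 3871 at 15376301 to 15377150 and 1642 at 15377851 to 15378750, and the nearest CHD7 peak was 17 kb away. Dll4, another ligand gene, had 1877 at its start and 1173 at its downstream end. Mfng, a fringe glycosyltransferase that modifies Notch receptors, had a peak of 2962 and one of 821. Maml3, a coactivator of the Notch complex, had 2229 at its start. The peaks at the starts of Dll4 and Maml3 and the stronger peak of Mfng lay 3.6, 1.1 and 3.8 kb from CHD7. The effector genes Hes5 and Hey2 were named among the genes that also have a CHD7 border peak, which fixes a CHD7 peak near them. The SOX2-only peak of Hes5 (chromosome 4, 154959651 to 154961650, total signal 4047) covers its start, and its nearest CHD7 peak was 1.5 kb away. Upstream of the start of Hey2 the SOX2-only peak (chromosome 10, 30843651 to 30844750, total signal 3724) directly adjoined a CHD7 peak without sharing a base.

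**Figure D4:**
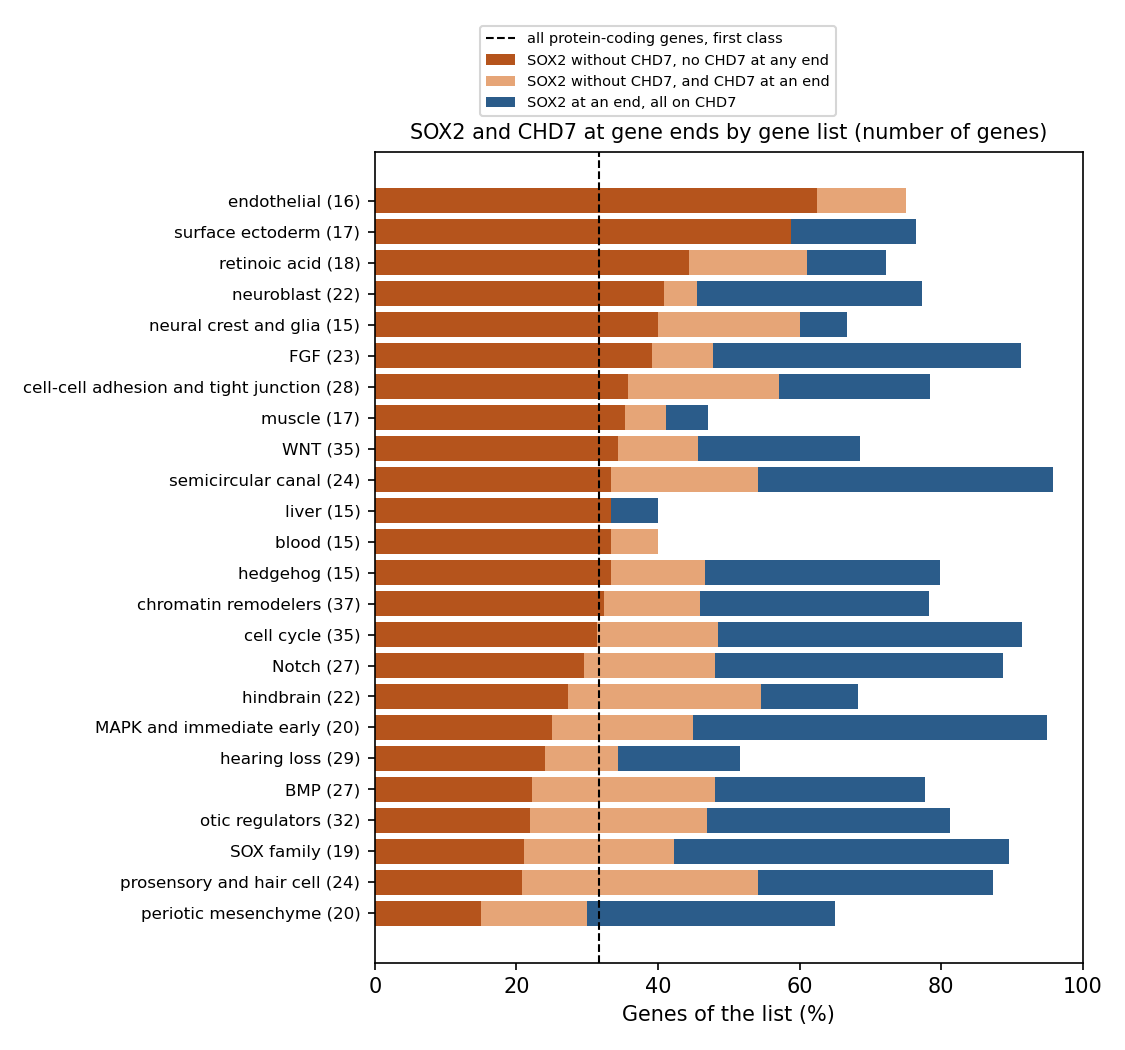
Percentage of genes of each list (horizontal axis) with a SOX2-only border peak and no CHD7 border peak (dark orange), with a SOX2-only border peak and CHD7 at a border (light orange), or with SOX2 border peaks that all lie on CHD7 (blue); numbers of genes are in parentheses and the dashed line is the 31.6% of all protein-coding genes in the first class. Endothelial and surface ectoderm genes have the longest dark orange bars, 62.5% and 58.8%.

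Regulators of the otocyst fell into all classes. Of 32 otic regulators 7 (21.9%, against 31.6% of all genes) had a SOX2-only peak without CHD7 at a border. Another 8 (25%, against 9.12%) had one beside a CHD7 border peak and 11 (34.4%, against 19.7%) had SOX2 only on CHD7. The first count was 14 of 32 when only the stronger 50% of CHD7 peaks were used (background 41.5%). Eya4, a transcriptional coactivator gene mutated in hearing loss, had the strongest peak of the 7. That peak, with a total signal of 4780, covered 23348651 to 23350900 on chromosome 10 at the start of the gene and ranked 45 among all SOX2-only border peaks, with the nearest CHD7 peak 77.3 kb away. Sall4, a zinc finger gene, had peaks of 2053 and 1114, and Sox3, a close relative of Sox2, had 1173 and 880. Gata2, which acts in the otic epithelium, had 1290 at its start, 3.8 kb from CHD7. Hmx3, a homeobox gene of the dorsal otocyst, had a SOX2-only peak of 1701 at its start and a CHD7 border peak as well.

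Of 24 prosensory and hair cell genes 5 (20.8%, against 31.6% of all genes) had a SOX2-only peak and no CHD7 border peak. Another 8 (33.3%, against 9.12%) had both. The count of 5 became 9 with the stronger 50% of CHD7 peaks (background 41.5%). Atoh1, the transcription factor gene that starts hair cell differentiation, had 3 SOX2-only peaks: 938 upstream of its start, 1525 over the gene and 938 past its downstream end. The nearest CHD7 peak was 149 to 152 kb from them. Myo7a, a hair cell myosin gene, had 880 at its start and 1173 at its downstream end. Jag2, a Notch ligand gene, had 1407 upstream of its start. Among 24 semicircular canal genes 8 (33.3%, against 31.6% of all genes) had SOX2 without CHD7. In 10 (41.7%, against 19.7%) all SOX2 border peaks lay on CHD7. The count of 8 became 14 with the stronger 50% of CHD7 peaks and 5 with windows of 500 bases (background 41.5% and 26.8%). The first group included Bmp2 (total signal 3343), Ntn1, which encodes netrin and is needed for fusion of the canal plates (3313), and Fgf10 (1789 at its start, with CHD7 56.8 kb away).

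Genes of the neuroblast lineage had SOX2 alone in 9 of 22 cases (40.9%, against 31.6% of all genes). The neuronal RNA-binding protein gene Elavl4 had a peak of 3929 with its maximum 114 bases past the start. Tubb3, a neuronal tubulin gene, had 1935 at its start and 1642 at its downstream end. Bdnf, a neurotrophin for sensory neurons of the ear, had 1818 and 1613 on both sides of its start, and Insm1, a zinc finger gene of delaminating neuroblasts, had 1613 and 821. Pou4f1 had a SOX2-only peak of 1701 and a CHD7 border peak. In the SOX family 4 of 19 genes (21.1%, against 31.6% of all genes) had SOX2 without CHD7, namely Sox13, Sox3, Sox5 and Sox18. In 9 (47.4%, against 19.7% of all genes) all SOX2 peaks lay on CHD7. The count of 4 became 8 with the stronger 50% of CHD7 peaks (background 41.5%). Sox13 had 1759 and 938 at its start and 880 at its downstream end, and Sox5 had 1906 at its start. Sox2 itself had no SOX2-only border peak, since both of its SOX2 border peaks lay on CHD7. Chd7 had 1, at 8869101 to 8869950 on chromosome 4, with a total signal of 1056.

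In the other signalling pathways 22.2% to 44.4% of genes had SOX2 without CHD7, around the 31.6% of all genes. Of 18 retinoic acid genes 8 (44.4%) did, and in 2 (11.1%, against 19.7% of all genes) SOX2 lay wholly on CHD7. With windows of 500 bases the count of 8 became 5 (background 26.8%). They included the synthetic enzyme gene Aldh1a3 (1935), the degrading enzyme gene Cyp26b1 (1437, at its downstream end), the reductase gene Dhrs3 (1407) and the binding protein gene Crabp1 (1173). FGF genes had 9 of 23 (39.1%), and in 10 (43.5%, against 19.7%) SOX2 lay wholly on CHD7. The receptor gene Fgfr3 had 1173 and 3050 at its start, with CHD7 57.6 kb away, and Fgfr4 had 2053 with its maximum 43 bases before the start. The feedback inhibitor gene Spry1 had 1173 and 1759, and the ETS factor gene Etv4 had 2229 and 1056. WNT genes had 12 of 35 (34.3%). The receptor gene Fzd10 held the strongest of these peaks, 5454 at its start with a CHD7 peak 0.301 kb away, and Lrp5, a coreceptor gene, had 3 peaks of 821 to 880. Hedgehog genes had 5 of 15 (33.3%), among them the signal transducer gene Smo (2111 at its start), the receptor gene Ptch1 (1349 and 938), the transcription factor gene Gli1 (2375 and 1407) and the coreceptor gene Boc (1613, 1466 and 1173). BMP genes had 6 of 27 (22.2%), or 11 with the stronger 50% of CHD7 peaks (background 41.5%), and 7 (25.9%, against 9.12% of all genes) with both. Beside Bmp2 the first group held Bmp5 (1056), the signalling SMAD gene Smad1 (1056) and the receptor gene Acvr2a (997). Id1, a target gene of BMP signalling, had a SOX2-only peak of 3519, 0.251 kb from a CHD7 peak.

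Cell cycle genes stood at the background for SOX2 without CHD7, with 11 of 35 (31.4%, against 31.6% of all genes). In 15 (42.9%, against 19.7% of all genes) every SOX2 border peak lay on CHD7. Genes of the MCM helicase, which unwinds DNA at replication forks, were the strongest of the 11 by summed signal. Mcm3 had 2668 with its maximum 38 bases before the start, Mcm5 had 2522 and 1056, and Mcm6 had 2053 with its maximum 20 bases before the start and 1437 further upstream. The mitotic kinase gene Plk1 had 1466 and 1173. The nearest CHD7 peak was 24.4 to 56.5 kb from the first peak of Mcm3, Mcm5, Mcm6 and Plk1. Chromatin remodelers had 12 of 37 (32.4%), led by the SWI/SNF subunit genes Smarcb1 (1701 at each end), Smarcd1 (2170 at its start), and by Chd3, which encodes another CHD remodeler (1994 and 821). Immediate early and MAPK genes had 5 of 20 (25%), with Dusp5, an ERK phosphatase gene, at 3431. Hearing loss genes had 7 of 29 (24.1%).

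Lists named for other tissues or for cell adhesion held SOX2-only border peaks as well. The surface ectoderm and adhesion lists hold epithelial genes, which the otocyst, itself an epithelium, may also use. Their shares are therefore no sign of other cell types. Of 16 endothelial genes 10 had SOX2 without CHD7 (62.5%, against 31.6% of all genes), and in none did SOX2 lie only on CHD7. They included Pecam1 (1935 and 880), Cdh5 (1877 and 762), Cldn5 (1290 and 938) and Emcn (1056 and 938), which encode surface and junction proteins of vessels. The median total signal of the 17 SOX2-only peaks at endothelial genes was 938, below the 1114 of all such peaks, and with the stronger 50% of SOX2 peaks the count was 4 of 16 (background 22%). Surface ectoderm genes had 10 of 17 (58.8%), led by the epithelial splicing regulator gene Esrp1 (3900, 1407 and 938), Krt8 (1232 and 1173), Cldn7 (1378 and 938) and Tfap2c (1994). With the stronger 50% of SOX2 peaks the count was 5 of 17, and with windows of 500 bases it was 5 as well (background 22% and 26.8%). Genes of cell adhesion and tight junctions had 10 of 28 (35.7%), with Pkp2 (1642 and 1495) and Cldn1 (2170) among them. Neural crest and glia genes had 6 of 15 (40%), among them Snai2 (2610) and Ednrb (1759 at its start), and hindbrain genes had 6 of 22 (27.3%), among them Wnt8b (1114 and 1232). Blood genes had 5 of 15, liver genes 5 of 15 and muscle genes 6 of 17 (33.3%, 33.3% and 35.3%), and periotic mesenchyme genes 3 of 20 (15%). In blood and liver lists 60% of genes had no border peak of either protein, against 37.1% of all genes. In the muscle and hearing loss lists 52.9% and 48.3% had none. RNA from these genes was not measured, and the part of other cell types in these counts was not tested.

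The strongest SOX2-only border peaks were a mixed set. The highest total signals, 22373 and 14691, lay at the downstream ends of Gm6818 and Gm21129, predicted genes on chromosome 7 at 38398169 to 38408146 and 38816064 to 38826266. Another at Gm29258, on the same chromosome, had 7888. The peaks at LOC115488283 (12403) and Gm3488 (7213), both on chromosome 14, were also at predicted genes. The sources used here do not say how reads from near-identical gene copies were placed, so these values are uncertain. Among named genes the downstream end of Lhcgr, the luteinizing hormone receptor gene, had 9647. The start of Syt1, which encodes the calcium sensor of synaptic vesicles, had 7301 at 109009951 to 109012100 on chromosome 10, with its maximum 20 bases before the gene border and CHD7 71.6 kb away. Zfp959 had 6774 past its start, Crip2, a LIM protein gene, had 6510 with its maximum 11 bases before the start, and the folate enzyme gene Mthfs had 6334, 65 bases before the start. Of these 10 strongest peaks 4 thus lay at downstream ends and 6 at starts.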

How the data were processed

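CUT&Tag was applied to 1 pool of E10.5 otocyst cells, with 1 library per antibody. Per the submitters' processing notes, tools included Bowtie2, deepTools and SEACR, on mm10. Versions, calling settings and use of the control were not given in the sources used here. Each deposited list gives the total and the maximum coverage signal of each peak, as the authors' SEACR-style columns, with unknown scaling and depth. Precision is that of the number of peaks. Here, peak borders were compared with 21631 protein-coding genes on chromosomes 1 to 19 and X of the RefSeq table (GRCm38.p6). Strand came from RefSeq start windows (21045 windows, 250 bases before to 50 after the start). No genome was used, so motifs were read in these windows alone, and position within a gene is given by its borders only. Genes and sequences were named by fixed rules: up to 4 genes per list without and 2 with a CHD7 border peak, by summed signal, and the 10 strongest peaks; the text gives a subset. The planned choice of sequences was narrowed to stretches outside annotated genes and widened to all lists after the data had been seen. The set of peaks, the 24 gene lists and 20 symbol classes were chosen with earlier results of these data known; 552 of 555 list entries matched the table. The overlap and motif steps were tested on simulated data. Alternatives were 5 other windows, strengths and overlap rules. Versions were numpy 2.4.6 and pandas 2.3.3 (tables), scipy 1.17.1 (intervals), matplotlib 3.10.9 (plots) and Python 3.11.15.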

Additional observations from a re-analysis of the deposited data

Results flagged for a closer look

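The Y chromosome lies outside the set described. There, 15 of 19 SOX2 peaks at the borders of protein-coding genes had no CHD7 peak, with a median total signal of 938; this was noted because the comparisons do not use that chromosome.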

How the results depend on the processing

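Starts kept a smaller share without CHD7 than downstream ends under all 5 alternatives. With gene windows of 500 bases, windows of 2 kb, the stronger 50% of SOX2 peaks, no CHD7 peak within 1 kb, and the stronger 50% of CHD7 peaks, in this order, the share of gene-border SOX2 peaks without CHD7 was 59.2%, 71.2%, 55.5%, 60% and 77.1% (65% as reported). The share at starts was 50.1%, 61.3%, 47.3%, 49.8% and 70.6%. At downstream ends it stayed within its interval with both windows and was 88.6%, 89.3% and 95.8% with the other 3 settings; these results at starts and ends were added after seeing the data. The ratio of median total signal of SOX2-only to shared border peaks, 0.463, was 0.476 with 500 bases, 0.545 with stronger SOX2 peaks, 0.514 with no CHD7 within 1 kb and 0.412 with stronger CHD7 peaks. The share at starts only was 64.7%, 53.8%, 65.4%, 58.4% and 64.3% of placed peaks, in the first order. The share with CHD7 within 10 kb was 29.6% and 34.2% with the 2 windows, 26% with no CHD7 within 1 kb and 18% with stronger CHD7 peaks. The number of SOX2-only border peaks was 6056 with the stronger 50% of SOX2 peaks, and within 1.5 times of 9930 otherwise. The share of windows with a SOX core stayed within its interval under all 5. Of 120 list counts 99 stayed within 1.5 times of the reported count. Beside those given in the report, stronger CHD7 peaks gave 5 of 20 periotic mesenchyme and 9 of 20 MAPK genes (background 41.5%). Stronger SOX2 peaks gave 1 of 20 periotic mesenchyme, 3 of 15 blood, 3 of 17 muscle and 3 of 15 liver genes (background 22%). Windows of 500 bases gave 3 of 20 MAPK genes (background 26.8%). Windows of 2 kb gave 14 of 29 hearing loss and 8 of 15 blood genes (background 36.8%). Of the 24 lists 14 were above the share of all genes as reported, and 12 to 14 were under each alternative. The lists of neuroblast, FGF, retinoic acid, surface ectoderm, endothelial and adhesion genes were above it under all 5. Their margins could be small, as with 4 of 16 endothelial genes with stronger SOX2 peaks (background 22%), and were not tested. No replicate exists, and unknown depth limits any statement on the absence of CHD7. No paired analysis was possible because the labels give 1 library per antibody.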

Other observations

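Gene classes taken by symbol extended the picture. Zinc finger genes with Zfp symbols had a SOX2-only border peak and no CHD7 border peak in 178 of 397 cases (44.8%, against 31.6% of all genes), with a median total signal of 1202 over their SOX2-only peaks. Potassium channel genes had 42 of 93 (45.2%) and only 7.53% in which SOX2 lay wholly on CHD7; Kcna4, a voltage-gated channel gene, had a peak of 3871 with the nearest CHD7 peak 149 kb away. Collagen genes had 18 of 44 (40.9%), with Col16a1 at 3783, its maximum 8 bases past the start. Proteasome subunit genes had 20 of 51 (39.2%) and mitochondrial ribosomal protein genes 29 of 78 (37.2%), while genes with cytosolic ribosomal protein symbols had 19 of 82 (23.2%) and complex I subunit genes 9 of 40 (22.5%). In complex I genes 30% had a SOX2-only border peak beside a CHD7 border peak.

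In several tissue-restricted families few genes had CHD7 at a border. Keratin and keratin-associated genes had 30 of 109 with SOX2 alone (27.5%, against 31.6% of all genes) and 1 with SOX2 wholly on CHD7. Beta-defensin genes had 14 of 42 (33.3%) and 0, and cytochrome P450 genes 34 of 99 (34.3%) and 8. Olfactory receptor genes had 155 of 1110 (14%) and 4, and vomeronasal receptor genes 28 of 353 (7.93%) and 4, with median total signals of 938 and 880 at their SOX2-only peaks. Hox cluster genes differed: 4 of 39 had SOX2 alone, and 11 had CHD7 without a SOX2 border peak (2.52% of all genes did). Protocadherin genes had 23 of 69 (33.3%, against 9.12%) with a SOX2-only peak and CHD7 at a border, and the 33 protocadherin genes with a SOX2-only border peak had 18 such peaks among them.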
